A study of Mus musculus with 16 samples.

Results

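The mRNAs of the glucocorticoid receptor and of the chaperones that hold it ready for hormone were followed in cultured mouse mast cells. The set held 10 genes, which were listed by symbol for their known place in the receptor complex, with earlier results of these data known. It comprised Nr3c1, Hsp90aa1, Hsp90ab1, Hspa8, Stip1, Fkbp4, Fkbp5, Ptges3, Bag1 and Ppid. All 10 symbols were found, each in 1 of the 39179 genes of the count files, and all 10 were among the 13305 genes that passed the filter on low counts.

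RNA-seq was done on bone marrow-derived mast cells (BMMCs), grown for 4 weeks in stem cell factor and IL3 from the marrow of C57BL/6 males that were 8 to 10 weeks old. The animals were PEP+/+ or PEP-/-, where PEP is the PEST-domain-enriched tyrosine phosphatase encoded by Ptpn22, a phosphatase of immune cells. All samples were sensitized with IgE for 3 h (0.05 µg/ml per the labels, while the study's methods state a higher dose), so a comparison with unsensitized BMMCs was not possible. The samples called IgE had no further agent. The samples called IgE DEX also had dexamethasone (DEX), a synthetic glucocorticoid, at 1e-07 M for 8 h. The samples called IgE DNP had the antigen, dinitrophenyl on bovine serum albumin (DNP), at 200 ng/ml for 1 h, which cross-links IgE on its receptor and activates the cell. The samples called IgE DNP DEX had both agents. Each treatment of each genotype had 2 replicates, 16 samples in all. The study's methods call the replicates biological, but how many mice or cultures they came from is not given in the sources used here, so the p-values measure the spread between these samples, which may be technical. How the PEP-/- allele was made is not given in the sources used here.

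Without hormone the glucocorticoid receptor waits in the cytoplasm in a complex with HSP90. HSP70 family members first bind the receptor, the adaptor HOP passes it on to HSP90, and p23 then stabilises the form that can bind the hormone with an immunophilin attached. The immunophilin FKBP51 lowers the affinity for hormone and slows nuclear import, while FKBP52 links the complex to the dynein motor. Glucocorticoids restrain mast cell activation and are a mainstay of antiallergic treatment.

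The reads that fell on genes numbered 8612531 to 22143526 in a sample, with a median of 12814043.5. Expression is given as the CPM unit, which scales each sample's counts to a common library size by the TMM method. Ptpn22 had 0 to 55 reads in the PEP-/- samples and 130 to 2799 in the PEP+/+ samples, and the ranges did not overlap. The 14 mast cell markers, among them Kit, Fcer1a and Cpa3, summed to between 69009.5 and 116752 CPM in every sample. Markers of macrophages summed to 13.3 to 48.5 CPM, of neutrophils to 1.81 to 4.19 CPM, of lymphocytes to 0.0911 to 0.991 CPM and of erythroid cells and megakaryocytes to 0.147 to 6.38 CPM. The 4 basophil markers summed to 2075 to 4101 CPM, but Mcpt8 and Prss34, which define that cell, did not exceed 62.8 and 59.4 CPM. Itga2b, at 1939 to 3919 CPM, made up most of the sum. It was counted in this list only, so the erythroid and megakaryocyte sum leaves it out. The macrophage sum was 13.3 to 26.4 CPM after IgE and 23.6 to 48.5 CPM after IgE DNP DEX. Cd68, at 8.74 to 43.3 CPM over the samples, made up most of it. Cd14, which was higher by DNP, did not exceed 4.68 CPM. The mast cell sum was 69009.5 to 79299.7 CPM after IgE and 91274.2 to 116752 CPM after IgE DNP DEX. Of its 14 genes, 3 (Hdc, Tpsab1 and Srgn) rose by DNP, against 9.07% of all genes without DEX and 7.19% with DEX. Hdc also rose by DEX, by 2.22 without DNP and 1.21 with DNP on the log2 scale. Hba-a1, a globin gene, rose by DEX from at most 3 reads per sample after IgE, and C1qa of the macrophage list was at 0 throughout. The share of alignments that were not unique, which count on no gene, was 21.5 to 25.6% after IgE and 30.3 to 37.8% after IgE DNP DEX. The part of these measures in the results was not tested. In bulk samples, fewer cells of a type and less RNA per cell cannot be told apart.

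The members spanned a wide range of levels. Levels of different genes were compared only as CPM per kb of exon. On this scale Hsp90ab1, the constitutive cytosolic HSP90, had the highest mean of the set at 421 ± 90.0 (SD, n = 16), followed by Hspa8, the constitutive HSP70, at 244 ± 82.4 and the HSP70 nucleotide exchange factor Bag1 at 121 ± 25.2. Hsp90aa1, the inducible HSP90, stood at 69.6 ± 32.5, Fkbp5 at 52.4 ± 44.7 and Stip1 at 44.3 ± 16.9. Ptges3 (30.6 ± 7.43), Fkbp4 (24.3 ± 7.54), the receptor Nr3c1 (15.8 ± 5.46) and Ppid (7.04 ± 2.48) formed the lower end. Hsp90ab1 exceeded Hspa8 in 16 of 16 samples and Hspa8 exceeded Bag1 in 16 of 16. The place of Fkbp5 differed with DEX. In the 8 samples without DEX it stood at 7.66 to 13.1 CPM per kb, below Hsp90aa1 (44.1 to 134.7) and Stip1 (29.3 to 88.9), and in the 8 with DEX it stood at 78.7 to 113.8, above Hsp90aa1 (26.1 to 74.1) and Stip1 (21.6 to 54.5). The place of Fkbp5 also depended on the length used, since its exons cover 9468 bases in all but 3858 in its longest transcript, and with the latter its mean was 129, above that of Bag1. Within a gene, the highest sample exceeded the lowest 14.9 times for Fkbp5, 5.15 times for Hsp90aa1, 4.12 times for Stip1 and 3.21 times for Hspa8. The other 6 members differed by 2.12 to 2.99 times.

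**Figure D1:**
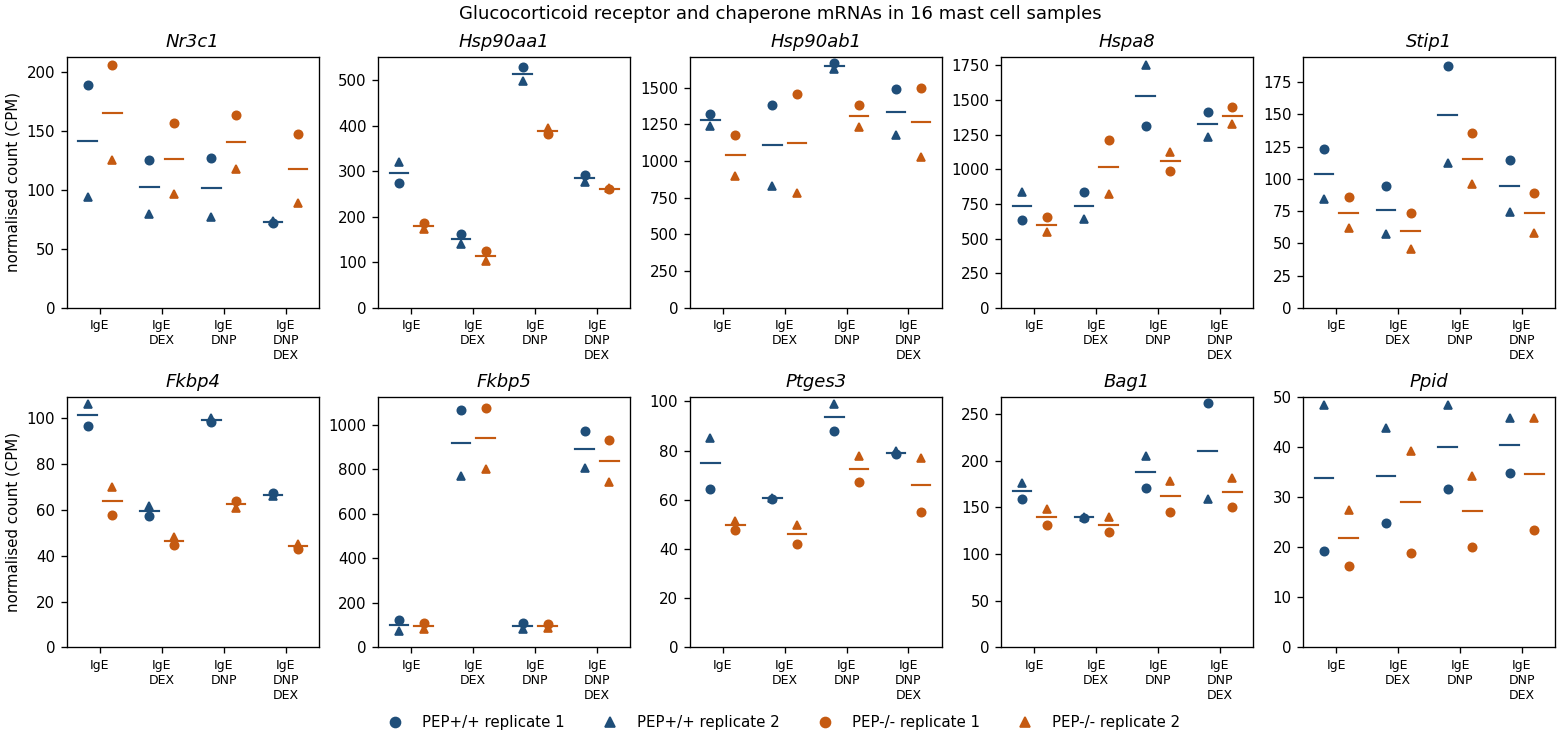
Normalised counts (CPM, vertical axis, from 0) of the 10 members in the 16 samples, by treatment, with PEP+/+ in blue, PEP-/- in orange, circles for replicate 1, triangles for replicate 2 and a line at the mean of each pair. Fkbp5 separates into samples with DEX (745 to 1077 CPM) and without (72.5 to 124 CPM), while Hsp90aa1 and Hspa8 are higher after DNP.

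With DEX, Fkbp5 rose and Fkbp4 and Hsp90aa1 fell, and with DNP, Hsp90aa1 and Hspa8 rose. By DEX without DNP, 3 of the 10 members passed the test, against 9.37% of all genes tested. They were Fkbp5, which rose as 5.4% of all genes did, and Hsp90aa1 and Fkbp4, which fell as 3.98% did. By DEX with DNP the same 3 members passed in the same directions, against 10.7% of all genes (5.67% higher and 4.99% lower). DNP without DEX raised 2 of 10, Hsp90aa1 and Hspa8, against 16.7% of all genes called (9.07% higher and 7.58% lower), and DNP with DEX raised the same 2, against 12.6% (7.19% higher and 5.42% lower). The first DEX and the first DNP comparison share the IgE samples, and the others share samples likewise, so the 4 are not independent. In PEP-/- against PEP+/+ BMMCs, averaged over the treatments, 2 of 10 passed, Fkbp4 and Hsp90aa1, both lower, against 1.59% of all genes (0.428% higher and 1.16% lower).

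The replicates fall into 2 sets that deviated together in every condition, and a fit with the set as a block had less residual spread. With it, 5 members were called by DEX without DNP (26.7% of all genes), 4 by DEX with DNP (33.3%), 4 by DNP without DEX (37.9%), 5 by DNP with DEX (37.6%) and 6 between the genotypes (17.4%). Of the latter, 1 was higher (7.72% of all genes) and 5 were lower (9.64%). All calls of the fit without the block were kept. The added members were Stip1 in all 5 comparisons, Ptges3 in both DNP comparisons and between the genotypes, Nr3c1 by DEX without DNP and between the genotypes, Bag1 by DNP with DEX, and Ppid between the genotypes. Their values are given below beside those of the fit without the block.

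**Figure D2:**
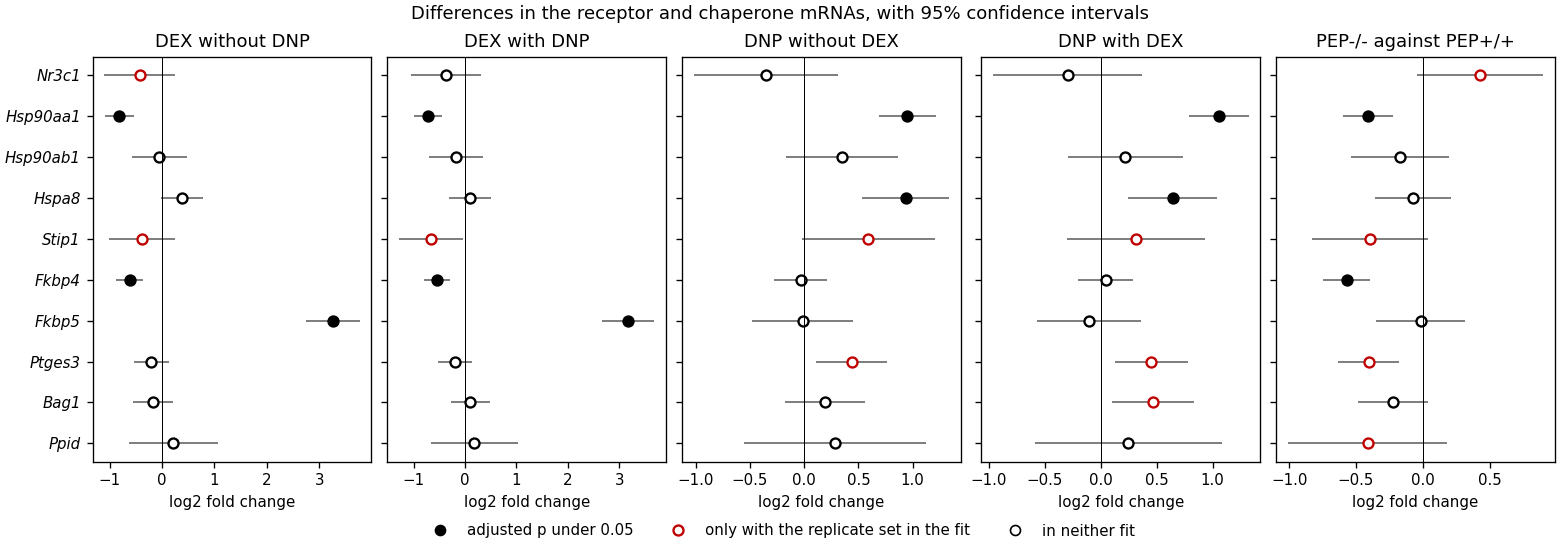
Log2 fold changes (horizontal axis, scales differ between panels) of the 10 members in the 4 treatment comparisons, averaged over genotypes, and between genotypes, with 95% confidence intervals from the fit without the block. Filled points passed the test, and red rings passed it only with the replicate set as a block. Fkbp5 lies at 3.26 and 3.17 by DEX, apart from all other members.

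Nr3c1 encodes the receptor itself (chromosome 18, 39410545 to 39519421, minus strand, GRCm38). In PEP+/+ BMMCs it stood at 189 and 94.0 CPM after IgE, 126 and 79.3 CPM with DEX added, 127 and 76.8 CPM with DNP added, and 71.9 and 73.9 CPM with both (replicates 1 and 2). In PEP-/- BMMCs the corresponding pairs were 206 and 125 CPM, 157 and 96.9 CPM, 164 and 118 CPM, and 147 and 89.2 CPM. Replicate 1 was higher in 7 of 8 conditions, and all treatment groups overlapped. Within replicate and genotype, however, each of the 4 samples with DEX was lower than its partner without, to 0.665 to 0.843 of it without DNP and 0.565 to 0.962 with DNP. The log2 fold change by DEX without DNP was -0.43 (SE 0.300, edgeR adjusted p = 0.544), and it passed the test only with the replicate block (-0.41, SE 0.129, adjusted p = 0.0293). That call was lost in 7 of the 16 block fits that each left out 1 sample, with an adjusted p of up to 0.181. With DNP the change by DEX was -0.37 (SE 0.301, adjusted p = 0.536), or -0.34 with the block (adjusted p = 0.0589). After DNP, Nr3c1 was likewise lower in 4 of 4 pairs without DEX and in 4 of 4 with DEX, with log2 fold changes of -0.35 (SE 0.300, adjusted p = 0.537) and -0.30 (SE 0.300, adjusted p = 0.603). Neither passed the test with the block, where the adjusted p-values were 0.0596 and 0.133.

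The 2 cytosolic HSP90 genes differed in their response. Hsp90aa1 (chromosome 12, 110690605 to 110702728, minus strand), the stress-inducible form, stood in PEP+/+ BMMCs at 274 and 319.7 CPM after IgE, 162 and 139.7 CPM with DEX added, 529 and 499 CPM with DNP added, and 291 and 277 CPM with both. In PEP-/- BMMCs it stood at 186 and 173 CPM, 125 and 103 CPM, 381 and 395 CPM, and 259.8 and 264 CPM in the same order. Every sample with DNP lay above every sample without it at the same DEX status, and every sample with DEX lay below every sample without it at the same DNP status. Groups without overlap were seen for 15.6 to 22.2% of all genes in the 4 treatment comparisons. Hsp90aa1 fell by DEX to 0.568 times its level without DNP (log2 fold change -0.82, SE 0.117, edgeR adjusted p = 0.001) and to 0.611 times with DNP (-0.71, SE 0.116, adjusted p = 0.00254). It rose by DNP 1.93 times without DEX (0.95, SE 0.117, adjusted p = 0.000216) and 2.08 times with DEX (1.06, SE 0.117, adjusted p = 0.000167). All 4 calls held in each of the 16 fits that left out 1 sample. The interaction of DNP with DEX was 0.11 on the log2 scale (95% confidence interval -0.25 to 0.46, adjusted p = 1.00).

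Hsp90ab1 (chromosome 17, 45567775 to 45573271, minus strand) ranged from 899.6 to 1319 CPM after IgE, 781 to 1457 CPM with DEX added, 1233 to 1664 CPM with DNP added and 1025 to 1499.9 CPM with both. It did not pass the test in any comparison in either fit. Its log2 fold changes were -0.05 and -0.18 by DEX and 0.35 and 0.22 by DNP (SE 0.231 each), and it was higher after DNP in 4 of 4 pairs without DEX and in 4 of 4 with DEX. Per length, the ratio of Hsp90aa1 to Hsp90ab1 was 0.121 to 0.197 after IgE, 0.0656 to 0.128 after IgE DEX, 0.210 to 0.245 after IgE DNP and 0.132 to 0.196 after IgE DNP DEX. Hsp90aa1 thus stayed below Hsp90ab1 in every sample. Reads that align to several places were counted on no gene, so members of this family, which have near-identical copies elsewhere in the genome, are uncertain in level.

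Hspa8 encodes HSC70, which folds client proteins and feeds them to HSP90 (chromosome 9, 40800984 to 40810087, plus strand). In PEP+/+ BMMCs it stood at 634 and 836 CPM after IgE, 832 and 644 CPM with DEX added, 1312 and 1749 CPM with DNP added, and 1414.5 and 1232 CPM with both. The PEP-/- samples in the same order held 655 and 545 CPM, 1214 and 820.2 CPM, 989 and 1122 CPM, and 1445 and 1324 CPM. By DNP, groups did not overlap for 22.2% of all genes without DEX and 19.4% with DEX. For Hspa8, every sample with DNP lay above every sample without it at the same DEX status. The rise by DNP was 1.91 times without DEX (log2 fold change 0.94, SE 0.178, edgeR adjusted p = 0.0039) and 1.56 times with DEX (0.64, SE 0.177, adjusted p = 0.0361). The former call held in each of the 16 fits that left out 1 sample. The latter was lost in 7 of them, with an adjusted p of up to 0.142, and when only the 8 samples with DEX were fitted (adjusted p = 0.0804). The 7 left out were both PEP-/- IgE samples, replicate 1 of PEP+/+ IgE DNP DEX, replicate 2 of each IgE DEX group and both PEP-/- IgE DNP DEX samples. With the replicate block it held in all 16. By DEX, the log2 fold change was 0.38 without DNP (SE 0.177, adjusted p = 0.264) and 0.09 with DNP (SE 0.177, adjusted p = 0.838). The values by DEX without DNP were 0.01 in PEP+/+ and 0.76 in PEP-/- BMMCs, a difference of 0.76 with a 95% confidence interval from -0.02 to 1.53 (adjusted p = 1.00). With the block the value in PEP-/- BMMCs passed the test (0.76, adjusted p = 0.0278, against 0.165 without), and the interval of the difference was 0.11 to 1.41 (unadjusted p = 0.0248, adjusted p = 1.00). The snoRNA genes Snord14c, Snord14d and Snord14e lie within Hspa8 and had 0 counts.

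Bag1 encodes a nucleotide exchange factor that releases clients from HSP70 and can bind the receptor (chromosome 4, 40936398 to 40948294, minus strand). It ranged from 131 to 177 CPM after IgE, 124 to 140.0 CPM with DEX added, 145 to 205 CPM with DNP added and 151 to 262 CPM with both. All 4 samples after IgE DNP DEX lay above all 4 after IgE DEX, a comparison in which 19.4% of all genes had groups without overlap. The highest Bag1 sample, replicate 1 of PEP+/+, stood apart from its partner at 159 CPM. The log2 fold change by DNP with DEX was 0.47 (SE 0.165, edgeR adjusted p = 0.0925), and 0.47 with the block (SE 0.140, adjusted p = 0.0172), where it was called in 13 of 16 fits that left out 1 sample. The 3 that lost it left out replicate 1 of PEP-/- IgE DEX, replicate 2 of PEP+/+ IgE DEX or replicate 2 of PEP-/- IgE DNP DEX. The size of this change depended on single samples. Without the block it was 0.28 to 0.64 over the fits that left out 1 sample, and with the block 0.23 to 0.69. The 0.64 came from leaving out replicate 2 of PEP+/+ IgE DNP DEX. By DNP without DEX the log2 fold change was 0.19 (SE 0.164, adjusted p = 0.545), and by DEX it was -0.17 and 0.10.

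Stip1 encodes HOP, the adaptor that hands clients from HSP70 to HSP90 (chromosome 19, 7020702 to 7039967, minus strand). Its levels in PEP+/+ BMMCs were 123 and 84.5 CPM after IgE, 94.3 and 57.4 CPM with DEX added, 187 and 112 CPM with DNP added, and 115 and 74.6 CPM with both. In PEP-/- BMMCs they were 85.7 and 61.8 CPM, 73.2 and 45.5 CPM, 136 and 95.6 CPM, and 89.3 and 57.9 CPM. Replicate 1 was higher than replicate 2 in 8 of 8 conditions, by 0.47 to 0.74 on the log2 scale. Each PEP-/- sample also lay below the PEP+/+ sample of the same treatment and replicate. The treatment groups thus overlapped, also within replicate 1, although each pair moved one way. Within replicate and genotype it was lower with DEX in 8 of 8 pairs and higher with DNP in 8 of 8. Without the block no treatment comparison passed the test, with log2 fold changes of -0.38 and -0.66 by DEX and 0.59 and 0.31 by DNP (SE 0.276 to 0.277, adjusted p = 0.561, 0.172, 0.196 and 0.537). Without the filter on low counts, that by DEX with DNP (adjusted p = 0.023) and that by DNP without DEX (adjusted p = 0.0408) passed. With the block all 4 passed, at -0.40 (SE 0.0823, adjusted p = 0.00198), -0.66 (SE 0.0822, adjusted p = 2.97e-05), 0.58 (SE 0.0819, adjusted p = 6.37e-05) and 0.32 (SE 0.0825, adjusted p = 0.00712), and each was kept in 16 of 16 block fits that left out 1 sample.

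Fkbp5, which encodes FKBP51, showed the largest response to DEX among the members (chromosome 17, 28399094 to 28517527, minus strand). In PEP+/+ BMMCs it stood at 124 and 72.5 CPM after IgE, 1068 and 771 CPM with DEX added, 108 and 83.3 CPM with DNP added, and 973 and 806 CPM with both. In PEP-/- BMMCs it stood at 108 and 84.3 CPM, 1077 and 801 CPM, 106 and 87.2 CPM, and 930.4 and 745 CPM. The lowest sample with DEX stood at 745 CPM and the highest without at 124 CPM. Within replicate and genotype the ratio was 8.62 to 10.6 without DNP and 8.55 to 9.68 with DNP. The fitted rise was 9.56 times (log2 fold change 3.26, SE 0.226, edgeR adjusted p = 4.98e-06) and 8.98 times (3.17, SE 0.225, adjusted p = 5.65e-06). DNP left it within error, at -0.02 without DEX (95% confidence interval -0.47 to 0.44) and -0.11 with DEX (-0.56 to 0.35). The response did not differ detectably between the genotypes, with a difference in the DEX effect of 0.06 (-0.85 to 0.97) without DNP and -0.10 (-1.01 to 0.81) with DNP.

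Fkbp4 encodes FKBP52, the paralogue of FKBP51 with the opposite action on the receptor (chromosome 6, 128429735 to 128438677, minus strand). In PEP+/+ BMMCs it stood at 96.6 and 106 CPM after IgE, 57.3 and 61.7 CPM with DEX added, 98.4 and 100.25 CPM with DNP added, and 67.4 and 65.9 CPM with both. In PEP-/- BMMCs the pairs were 58.0 and 70.1 CPM, 44.8 and 48.3 CPM, 64.1 and 60.9 CPM, and 43.1 and 45.1 CPM. Within each genotype every sample with DEX lay below every sample without. Across genotypes the groups overlapped, since the PEP-/- samples lay lower throughout. Fkbp4 fell by DEX to 0.652 times its level without DNP (log2 fold change -0.62, SE 0.107, edgeR adjusted p = 0.00365) and to 0.688 times with DNP (-0.54, SE 0.107, adjusted p = 0.00817). Both calls held in all 16 fits that left out 1 sample, but that with DNP was lost without the filter on low counts (adjusted p = 0.109) and with only the 8 samples with DNP in the fit (adjusted p = 0.0716). Its changes by DNP were -0.03 and 0.04 (SE 0.106 and 0.107).

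The ratio of Fkbp5 to Fkbp4 per length was 0.201 to 0.551 after IgE and 0.245 to 0.488 after IgE DNP. It was 3.69 to 7.10 after IgE DEX and 3.61 to 6.37 after IgE DNP DEX. The transcript in excess thus differed with the hormone in 16 of 16 samples on this scale. With the length of the longest transcript the ratio was 0.473 to 1.29 after IgE and 0.576 to 1.15 after IgE DNP, and 8.49 to 16.7 in the samples with DEX, so without hormone the order then depended on the sample.

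**Figure D3:**
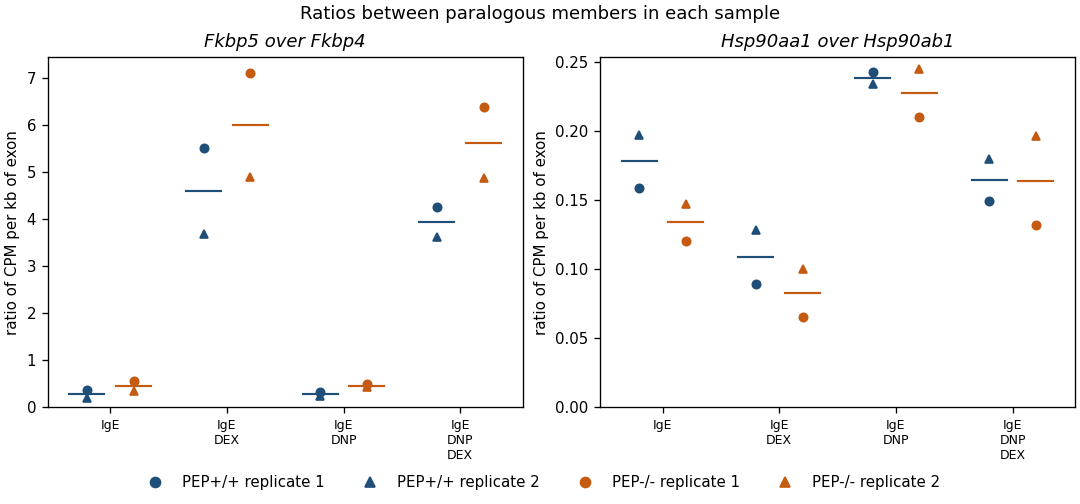
Ratio of the CPM per kb of exon (vertical axes, from 0) of Fkbp5 to Fkbp4 (left) and of Hsp90aa1 to Hsp90ab1 (right) in the 16 samples by treatment, with lines at the means of the pairs. The former is under 0.551 in all samples without DEX and over 3.61 in all with DEX, and the latter is highest after IgE DNP at 0.210 to 0.245.

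The promoters of Fkbp5, Fkbp4 and Stip1 are shown because these members moved by DEX in opposite directions in the same cells, Stip1 only with the block. RefSeq windows from 250 bases before to 50 after a transcript start were at hand for 5 of the 10 members (Stip1, Fkbp4, Fkbp5, Ptges3 and Bag1). They are on the minus strand of GRCm38.p6 at chr17:28486100-28486399 for Fkbp5, chr6:128438607-128438906 for Fkbp4 and chr19:7039977-7040276 for Stip1, each 5′ to 3′ along the gene, and capitals mark the heat shock unit pair described below.
Fkbp5: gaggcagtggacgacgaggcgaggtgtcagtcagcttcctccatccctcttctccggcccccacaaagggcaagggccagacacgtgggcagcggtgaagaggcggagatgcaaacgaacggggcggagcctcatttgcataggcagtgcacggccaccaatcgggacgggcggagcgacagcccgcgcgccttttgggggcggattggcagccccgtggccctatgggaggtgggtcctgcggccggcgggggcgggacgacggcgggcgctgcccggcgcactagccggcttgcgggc
Fkbp4: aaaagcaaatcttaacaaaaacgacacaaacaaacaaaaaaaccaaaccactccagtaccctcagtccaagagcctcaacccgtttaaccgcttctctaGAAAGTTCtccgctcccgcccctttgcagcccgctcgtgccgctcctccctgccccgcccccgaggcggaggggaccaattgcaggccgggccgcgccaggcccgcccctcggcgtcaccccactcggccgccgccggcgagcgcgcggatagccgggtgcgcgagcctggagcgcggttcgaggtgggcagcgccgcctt
Stip1: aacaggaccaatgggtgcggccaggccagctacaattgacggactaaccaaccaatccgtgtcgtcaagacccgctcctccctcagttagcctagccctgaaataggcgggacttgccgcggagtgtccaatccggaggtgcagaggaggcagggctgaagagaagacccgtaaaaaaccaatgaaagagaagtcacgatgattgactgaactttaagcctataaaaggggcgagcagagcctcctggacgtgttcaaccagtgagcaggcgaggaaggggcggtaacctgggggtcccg
The windows were searched on both strands for the heat shock element, in which the pair of units GAANNTTC is followed by a further GAA, and which 0.603% of the 32851 RefSeq windows of this length hold. They were also searched for the palindromic glucocorticoid response element, which 0.475% hold. Neither was found in the 5 windows. The shorter pairs of heat shock units GAANNTTC and TTCNNGAA, which overlap each other in the full element, were searched after that, and 7.86% and 8.52% of all windows hold them. Of the 5 windows only that of Fkbp4 held one, GAAAGTTC starting at -151 from the transcript start. A match is a description of letters and not of a bound site, and elements farther from the start were not searched. The Fkbp5 window lies inside the gene as annotated by GENCODE, which has a start farther upstream. The Stip1 window lies wholly upstream of the gene as annotated there, which starts at 7039967.

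Ptges3 encodes p23, which holds HSP90 in the form that binds clients tightly (chromosome 10, 128058954 to 128077272, plus strand). In PEP+/+ BMMCs it stood at 64.4 and 85.2 CPM after IgE, 60.3 and 60.9 CPM with DEX added, 88.0 and 99.1 CPM with DNP added, and 78.5 and 79.7 CPM with both. In PEP-/- BMMCs it stood at 47.8 and 51.5 CPM, 42.2 and 49.5 CPM, 67.2 and 78.0 CPM, and 54.8 and 76.8 CPM. It was higher after DNP in 8 of 8 pairs, by 1.16 to 1.51 times without DEX and by up to 1.55 times with DEX. The log2 fold changes by DNP were 0.44 (SE 0.143, edgeR adjusted p = 0.0606) and 0.45 (SE 0.143, adjusted p = 0.0623). With the block they were 0.44 (adjusted p = 0.00205) and 0.45 (adjusted p = 0.00225), and DESeq2 called them also, with an adjusted p of 0.0276 and 0.0229. Without the block, leaving out replicate 2 of PEP+/+ IgE gave an adjusted p of 0.0489 for the former, and leaving out replicate 1 of PEP-/- IgE DNP DEX gave 0.0299 for the latter. By DEX they were -0.21 and -0.19 and passed in neither fit.

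Ppid encodes CYP40, an immunophilin of the cyclophilin family (chromosome 3, 79591342 to 79603650, plus strand), and was the least abundant member per length. It ranged from 16.2 to 48.3 CPM after IgE, 18.9 to 43.8 CPM with DEX added, 20.0 to 48.5 CPM with DNP added and 23.5 to 45.9 CPM with both. Its log2 fold changes were 0.21 and 0.18 by DEX and 0.28 and 0.25 by DNP, with SEs of 0.378 to 0.379, and none passed the test in either fit. Replicate 2 was higher in 8 of 8 conditions, by 0.39 to 1.32 on the log2 scale, a gap larger in every condition than each of its 4 treatment changes.

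The members differed between replicates in directions of their own. Over the 8 conditions the median log2 difference of replicate 1 from replicate 2 was 0.71 for Nr3c1, 0.62 for Stip1, 0.37 for Fkbp5 and 0.36 for Hsp90ab1, but -0.80 for Ppid and -0.19 for Ptges3. Stip1, Fkbp5 and Hsp90ab1 were higher in replicate 1 in 8 of 8 conditions, and Ppid and Ptges3 in 0 of 8. Hsp90aa1 (0.08), Fkbp4 (-0.09), Hspa8 (0.16) and Bag1 (-0.18) had smaller medians. The labels number one replicate of each condition and letter the other, and do not say what the sets share. Reads outside annotated genes made up 4.69 to 7.18% of the alignments in replicate 1 and at least 8.35% in replicate 2, and the part of this difference in the results was not tested.

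**Figure D4:**
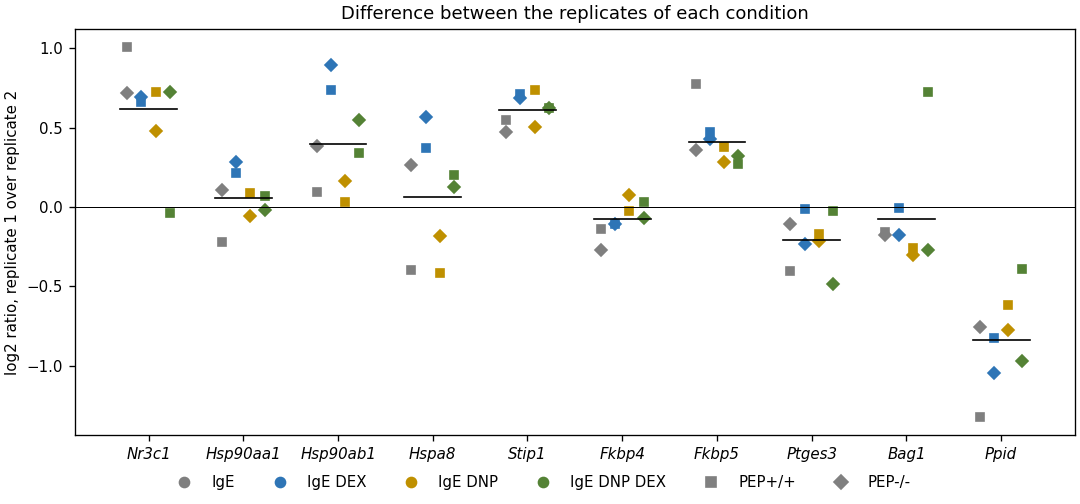
Log2 ratio of replicate 1 to replicate 2 (vertical axis) of each member in the 8 conditions, coloured by treatment, with squares for PEP+/+, diamonds for PEP-/- and a line at the mean. All 8 points lie above 0 for Stip1, Fkbp5 and Hsp90ab1 and below 0 for Ptges3 and Ppid.

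Between the genotypes, Fkbp4 and Hsp90aa1 were lower in PEP-/- BMMCs without the block, and with it Stip1, Ptges3 and Ppid were also lower and Nr3c1 was higher. The 8 pairs of the same treatment and replicate come from 2 replicate sets that deviated together, so they are not 8 independent comparisons. The treatments of a genotype and set may share a culture, and the tests count their samples as independent. Fkbp4 was lower in PEP-/- than in PEP+/+ BMMCs in 8 of 8 pairs, with 43.1 to 70.1 CPM against 57.3 to 106 CPM. Its average log2 fold change was -0.57 (SE 0.0755, edgeR adjusted p = 0.00909), or 0.673 times. The call held in all 16 fits that left out 1 sample and in 5 other settings, but its size is under the fold limit of 1. Hsp90aa1 was also lower in 8 of 8 pairs, at -0.41 (SE 0.082, adjusted p = 0.0327). That call was less firm, since it was lost without the filter on low counts (adjusted p = 0.127) and in 12 of the 16 fits that left out 1 sample, with an adjusted p of up to 0.103. The 4 samples whose removal kept it were replicate 1 of PEP+/+ IgE, both PEP+/+ IgE DNP DEX samples and replicate 2 of PEP+/+ IgE DEX. With the block its adjusted p was 0.000931, and it held in 16 of 16.

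The other members that differed did so only with the block or, for Ptges3, also with DESeq2. Nr3c1 was higher in PEP-/- in 8 of 8 pairs, by 0.13 to 1.04 on the log2 scale, with an average of 0.43 without the block (SE 0.212, edgeR adjusted p = 0.415) and 0.42 with it (SE 0.0914, adjusted p = 0.0067). Stip1 was lower in 8 of 8 pairs, by -0.23 to -0.53, with a block value of -0.39 (SE 0.0581, adjusted p = 0.000538, against 0.409 without). Ptges3 was lower in 8 of 8 pairs, with a block value of -0.41 (SE 0.0674, adjusted p = 0.001, against 0.0746 without), and DESeq2 called it as well (adjusted p = 0.0095). Ppid was lower in 7 of 8 pairs, with a block value of -0.43 (SE 0.0906, adjusted p = 0.00563, against 0.569 without). These block calls were kept in each of the 16 fits that left out 1 sample. Fkbp5 was higher in 4 of 8 pairs and differed by -0.02 (95% confidence interval -0.34 to 0.30), and Hspa8 was higher in 5 of 8 pairs and differed by -0.08 (-0.35 to 0.20). Hsp90ab1 (-0.17) and Bag1 (-0.23) did not pass in either fit.

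**Figure D5:**
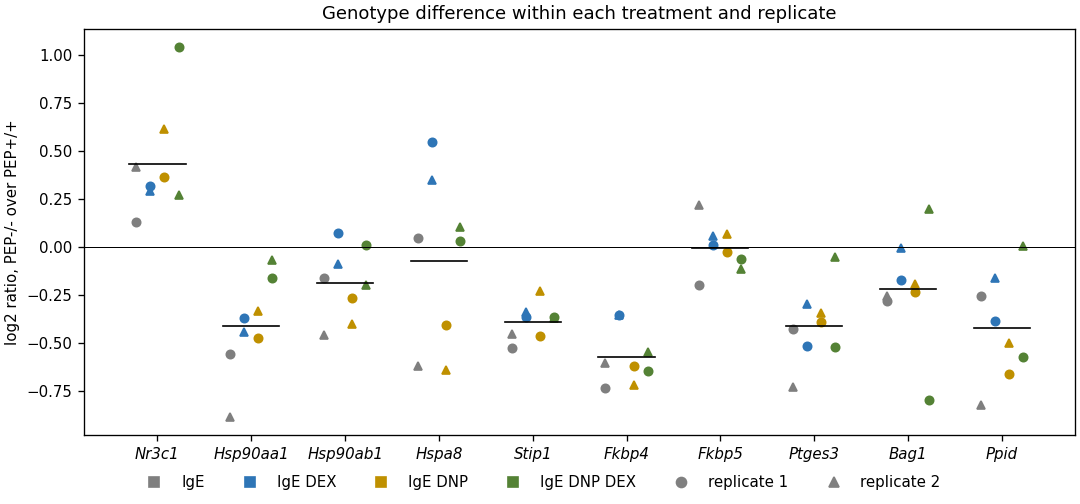
Log2 ratio of PEP-/- to PEP+/+ (vertical axis) of each member in the 8 pairs of the same treatment and replicate, with colours for the treatments, circles for replicate 1, triangles for replicate 2 and a line at the mean. All 8 points are above 0 for Nr3c1 and below 0 for Hsp90aa1, Stip1, Fkbp4 and Ptges3, and Fkbp5 lies about 0.

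Within each single treatment only 0.00752% of all genes, and 0 of 10 members, passed the test between genotypes without the block. The log2 differences of Fkbp4 were -0.66 after IgE, -0.35 after IgE DEX, -0.67 after IgE DNP and -0.60 after IgE DNP DEX. Those of Hsp90aa1 were -0.72, -0.40, -0.41 and -0.12, and those of Nr3c1 were 0.23, 0.31, 0.46 and 0.70. With the block, Fkbp4 (edgeR adjusted p = 0.0159), Hsp90aa1 (0.0202) and Ptges3 (0.0449) passed after IgE, where 1.69% of all genes did, and Fkbp4 (0.0136) after IgE DNP, where 1.86% did. No member passed in a test of whether the response to DEX or DNP differed between the genotypes, where 0% of all genes were called by edgeR with or without the block and 0 by DESeq2, and 0 members had an unadjusted p under 0.05 without the block. Nor did a member pass in the interaction of DNP with DEX, where 0.331% of all genes did (0.0601% higher and 0.271% lower), or 1.57% with the block (0.496% higher and 1.07% lower). With the block and without replicate 2 of PEP+/+ IgE DNP DEX, Bag1 passed in the latter (0.51, adjusted p = 0.00709), and Nr3c1 (0.74, adjusted p = 0.0378) and Bag1 (-0.65, adjusted p = 0.0332) in the genotype difference of the DNP effect with DEX.

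Other HSP90 and HSP70 chaperones were counted beside the members, 39 of 40 listed genes having been tested. By DNP without DEX, 14 rose and 1 fell (median log2 fold change 0.23, against 0.00 over all genes), and by DNP with DEX 11 rose and 1 fell (0.19, against -0.02). Of all genes, 9.07% rose and 7.58% fell in the former and 7.19% and 5.42% in the latter. With the block, 18 rose and 4 fell by DNP with DEX, against 18.4% and 19.2% of all genes. The HSP40 Dnajb1 rose from 47.4 to 59.9 CPM after IgE to 433 to 684 CPM after IgE DNP (log2 fold change 3.41, SE 0.227, edgeR adjusted p = 2.30e-06), and with DEX by 2.54 (SE 0.219). The co-chaperone Bag3 rose by 2.09 with DEX (SE 0.154, adjusted p = 9.36e-06). The inducible HSP70 genes Hspa1a and Hspa1b were called by DNP without DEX on few reads, 0 to 2 per sample after IgE against 5 to 30 and 11 to 70 after IgE DNP. Hspa1a was called with DEX also. The pair is near-identical, so most of its reads may have been counted on neither gene. Ttc4 fell in both DNP comparisons, by 0.61 and 0.49 on the log2 scale.

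By DEX, 2 of these 39 rose and 2 fell without DNP, and 4 rose and 3 fell with DNP, with medians of -0.03 and -0.06. Of all genes, 5.4% rose and 3.98% fell without DNP and 5.67% and 4.99% with DNP. The counts without DNP were near those shares, and the small counts with DNP were somewhat above them. With the block, 4 rose and 3 fell without DNP (12.9% and 13.8% of all genes), and 5 rose and 10 fell with DNP (15.9% and 17.4%). Cdc37l1, a relative of the HSP90 co-chaperone CDC37, rose by 2.15 without DNP (SE 0.123, edgeR adjusted p = 1.55e-06), from 22.9 to 29.5 CPM to 107 to 135 CPM, and by 1.78 with DNP (SE 0.122). Hspa4 rose by 0.38 without DNP, and Fkbpl (1.14) and Dnaja1 (0.55) rose with DNP. Hsp90b1, the HSP90 of the endoplasmic reticulum, fell by 0.48 and 0.46, and Dnajb1 and Hsph1 fell by 1.02 and 0.50 with DNP. Between the genotypes 0 of 39 passed, against 1.59% of all genes, and with the block 1 was higher and 14 were lower, against 7.72% and 9.64%.

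Of 21 tested steroid receptor coregulators and genes of ligand handling, 1 rose and 0 fell by DEX without DNP, and likewise with DNP. Of all genes, 5.4% rose and 3.98% fell without DNP and 5.67% and 4.99% with DNP. The gene that rose was Hdac6 in both, which deacetylates HSP90. It rose by 2.46 (SE 0.305, edgeR adjusted p = 0.000388), from 10.8 to 15.5 CPM to 48.8 to 110 CPM, and by 1.92 with DNP (SE 0.301). With the block, 1 rose and 3 fell by DEX without DNP, against 12.9% and 13.8% of all genes, and 2 rose and 8 fell with DNP (median without the block -0.36), against 15.9% and 17.4%. By DNP without DEX, Nrip1 (1.28), Ncor1 (0.88) and Ncoa3 (0.66) rose, and H6pd and the efflux pump gene Abcb1a fell by 0.88 and 0.76. Of all genes, 9.07% rose and 7.58% fell. With the block, 4 rose and 2 fell, against 18.6% and 19.3%. By DNP with DEX 0 rose and 2 fell, Abcb1a by 0.86 and Carm1 by 0.83, against 7.19% and 5.42% of all genes. With the block 1 rose and 7 fell, against 18.4% and 19.2%. Of 14 tested genes of nuclear transport of the receptor, the 14-3-3 gene Ywhah rose by DEX (1.09 and 1.21), and Ywhah (0.65 and 0.78) and Ywhaz (0.62 and 0.62) rose by DNP, and 0 fell. The shares of all genes without the block are those given above for the coregulators. With the block, 2 rose and 3 fell by DEX without DNP (12.9% and 13.8% of all genes) and 2 and 5 with DNP (15.9% and 17.4%). By DNP, 6 rose and 0 fell without DEX (18.6% and 19.3%), and 5 and 2 with DEX (18.4% and 19.2%). Neither list had a call between the genotypes without the block, where 1.59% of all genes were called.

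Known glucocorticoid targets served as a check of the hormone. Of 11 tested, 8 rose and 0 fell by DEX without DNP, and 6 rose and 3 fell with DNP. Of all genes, 5.4% rose and 3.98% fell without DNP and 5.67% and 4.99% with DNP. Tsc22d3 (GILZ) rose by 3.13 (SE 0.182, edgeR adjusted p = 1.64e-06) and 3.74 (SE 0.188), and Zbtb16 went from 0 to 1 reads per sample after IgE to 21 to 162 after IgE DEX. Dusp1 rose by 4.78 without DNP and Ddit4 by 3.15 with DNP. With DNP, Errfi1 fell, and Sgk1 and Cdkn1a fell by 1.93 and 0.77 on the log2 scale. By DNP alone 6 rose, led by Errfi1 (4.56), Dusp1 (4.02) and Nfkbia (3.76), and Ddit4 and Tsc22d3 fell by 2.47 and 0.92. Of all genes, 9.07% rose and 7.58% fell. With DEX 5 rose by DNP, led by Errfi1 (3.29), Dusp1 (1.10) and Cdkn1a (1.08), and Ddit4 fell by 1.36. Of all genes, 7.19% rose and 5.42% fell. The interaction of DNP with DEX was called for 4 of the 11, against 0.331% of all genes (0.0601% higher and 0.271% lower). It was positive for Ddit4 (1.11) and negative for Dusp1 (-2.92), Nfkbia (-2.78) and Sgk1 (-2.40).

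The patterns nearest to Nr3c1 over the 16 samples, by Pearson's r of log2 CPM, were those of Pgr (0.962), Tgfbr2 (0.961) and Apaf1 (0.958). For Fkbp5 they were those of Ank (0.997), Glb1 (0.994) and Cd34 (0.991). Among the members, Nr3c1 and Ppid ran most opposite to each other (r = -0.93), and Hsp90ab1 with Stip1 and Hsp90aa1 with Ptges3 most alike (0.84 each). All of these r are descriptions over 16 samples that share treatments, genotypes and replicate sets.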

How the data were processed

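RNA of 16 BMMC samples was sequenced by the authors with a stranded mRNA kit and paired reads, aligned with TopHat2 to GRCm38 and counted on genes with HTSeq, per the study's methods and the submitters' processing notes. The authors deposited raw counts per gene for each sample, and all values were computed from these counts. Of 39179 identifiers, 37607 (95.99%) were named by GENCODE M21. The 5 rows without a gene, 29.1 to 49.6% of alignments, were left out. Each sample had 8612531 to 22143526 reads on genes, and reads are not independent molecules. The precision of the tests also rests on the spread between the 2 replicates of each group. The strand setting of the counting is not given in the sources used here.

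After TMM scaling, the quasi-likelihood test of edgeR 4.0.16 (R 4.3.3) was applied to the counts of 13305 genes kept by filterByExpr (minimum count 10), with 1 mean for each of 8 groups and 8 residual degrees of freedom. P-values were adjusted over all genes (Benjamini-Hochberg), and those under 0.05 were called. Levels were CPM, and CPM per kb of merged exons. Groups followed the labels, which number 1 replicate of each condition and letter the other. Deviations from the group means correlated within these sets in all 28 pairs of groups (r = 0.453 to 0.799), so the pairing rests on the data. The alternative fit with the replicate block had 7 residual degrees of freedom and a common coefficient of variation of 0.133, against 0.312. Further alternatives were DESeq2 1.42.0, its size factors in edgeR, no filter, a minimum of 10 counts required of each sample, a fit restricted to the conditions compared, an absolute log2 fold change of at least 1, each sample left out and, for levels, the longest transcript. The block with each sample left out was added after seeing the data. The edgeR fit without the block and DESeq2 were run on simulated counts of independent samples. The simulation held no replicate sets that deviate together, and the fit with the block was not simulated.

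Every member is named, and from each further list up to 3 called genes with the largest change per direction and comparison, beside the 3 genes most correlated with Nr3c1 and with Fkbp5. Hspa1a and Hspa1b fall under this rule. A result that this rule would name is not reported here. The members and the lists of chaperones, coregulators, transport genes, hormone targets and cell type markers were chosen with earlier results of these data known, so they give no independent support.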

Additional observations from a re-analysis of the deposited data

How the results depend on the processing

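The number of members called by DEX without DNP was 3, and it was 5 with the replicate block and 1 with a log2 fold change of at least 1. By DEX with DNP it was 3, and 4 with the block, 2 with only the conditions compared and 1 with that fold limit. By DNP without DEX it was 2, and 4 with the block, 0 with the fold limit, 3 with DESeq2 and 2 to 3 without each replicate. By DNP with DEX it was 2, and 5 with the block, 1 with only the conditions compared or the fold limit, 3 with DESeq2 and 1 to 3 without each replicate. Between the genotypes it was 2, and 6 with the block, 1 without the filter, 3 with DESeq2, 0 with the fold limit and 1 to 2 without each replicate. Adding the block and leaving out each sample, chosen after seeing the data, gave 4 to 6, 4 to 7, 4 to 8, 4 to 7 and 6 to 7 members in these 5 comparisons, 0 to 1 for the interaction of DNP with DEX and 0 to 2 for the genotype difference in the DNP effect with DEX. In the comparisons averaged over the genotypes and the interactions, the block changed no call beyond those given with each member. Without the filter, 3 members were called by DNP without DEX. Of all genes, DESeq2 called 1620, 1887, 2637, 2228 and 668 in the 5 comparisons, against 1247, 1418, 2216, 1678 and 212 in the main fit. With the block the shares of all genes are those given above. For the other settings no such share is given, so a shift in a count is not a result about the members. No called value changed sign. Per kb of the longest transcript the mean level was 332 for Hspa8 and 129 for Fkbp5, against 244 and 52.4 per kb of merged exons. The cause of these shifts was not tested, and fits with fewer samples also have fewer degrees of freedom. With 2 samples a group, the differences of Nr3c1 and Ppid were not called in any fit of all 16 samples without the block.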
